A study of Drosophila melanogaster with 14 samples.

Results

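Cytochrome P450 enzymes are membrane-bound monooxygenases that carry a heme group and use electrons from NADPH, passed on by partner proteins, to put an oxygen atom into fatty acids, steroids and foreign chemicals. Insects hold many of them, arranged in 4 clans, and those of flies are best known for insecticide resistance, for the making and breakdown of the molting hormone ecdysone and for the hydrocarbons of the cuticle. The genes were chosen by their symbol in the platform annotation, Cyp followed by a family number, a letter and a gene number, and each gene is given by its probe set with the highest mean signal. This rule found 81 genes among the 11981 genes named by a probe set of a single gene, and their 83 probe sets were part of 18769. Of the 81 genes, 37 fall into the CYP3 clan by family number, 32 into the CYP4 clan, 8 into the mitochondrial clan and 4 into the CYP2 clan.

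Heads of control flies (w1118) and of fmn flies, which carry a mutation of the dopamine transporter gene DAT, arose in a y w stock and had been backcrossed to w1118, were collected every 4 h from zeitgeber time (ZT) 0 to ZT 24 after 4 cycles of 12 h light and 12 h dark. Flies were reared at 25 degrees on standard food, and the labels give no age for the array flies. The study's methods name males of 2 to 4 days after eclosion, while the array pools are labelled as both sexes. Heads were shaken off frozen flies and sieved, each RNA came from a pool of about 400 of them from males and females, and 1 Affymetrix Drosophila Genome 2.0 array was hybridized per genotype and time, 7 control and 7 fmn arrays in all. The pools hold both sexes in unknown proportion, and since whole heads were measured, fewer cells of a type and less RNA per cell cannot be told apart. Backcrossing can leave DNA of the original stock around DAT on chromosome arm 2R, and a base difference under a probe lowers its signal, so that for a gene with such a difference signal and transcript level cannot be told apart.

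The array values were signals of the MAS5 algorithm on a linear scale, whose 75th percentile lay between 563 and 584 on all 14 arrays. The signal of DAT was 555 ± 44.7 (SD, n = 7) on the control arrays and 8.55 ± 4.79 (SD, n = 7) on the fmn arrays. All 5 neuron, 2 photoreceptor and 4 glia markers examined had a signal of at least 100 on all 14 arrays. The summed neuron markers ranged from 3788 to 4369 in control and from 5302 to 5665 on 6 fmn arrays, with 3002 on the fmn array of ZT 12. Most of the rise on those 6 arrays came from elav, with 823 to 1108 in control and 2174 to 2335 there. Of the other neuron markers, para was higher there by a smaller amount, and nSyb and Rdl overlapped with control. In the other direction, brp had 180 to 278 in control and 140 to 195 on those 6 arrays. The neuron sum therefore does not show a common rise of its markers. The summed photoreceptor markers were 21620 to 23073 in control and 17486 to 20444 in fmn. The 6 fat body markers summed to 83604 to 104584 in control and 68704 to 94197 in fmn. Nearly all of the fat body sum came from the yolk protein genes Yp1, Yp2 and Yp3 and from apolpp. Lsp2, also on that list, went the other way, with 386 to 1836 in control and 1289 to 6207 in fmn. The 3 Malpighian tubule markers summed to 737 to 986 over all arrays. The neuron, photoreceptor and fat body sums moved with genotype or with a single array, and their part in the P450 results was not tested. Arrays from control flies at ZT 0 and from fmn flies at ZT 4 and ZT 8 stood apart. The 6 gut markers summed to 4299, 2997 and 8156 on these 3 arrays and to 203 to 290 on the other 11. The 12 testis and accessory gland markers summed to 3072 (control, ZT 0) and 3006 (fmn, ZT 4), and the 8 ovary markers to 5087 on the fmn array of ZT 8. Where a call of a P450 gene was lost without these 3 arrays, this is said with the result.

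Most P450 genes with a signal in the head had it on every array. A signal of at least 100 was found on all 14 arrays for 47 of the 81 genes (58.0%, against 56.8% of all named genes), on some arrays for 10 and on none for 24 (29.6%, against 35.5%). Between genotypes and over the day, genes were tested unless their signal was under 100 on at least 7 of the 14 arrays, which left 49 P450 genes (60.5%, against 59.3% of all named genes) and 32 that did not pass. By clan, 24 of 37 genes of the CYP3 clan, 18 of 32 of the CYP4 clan, 5 of 8 of the mitochondrial clan and 2 of 4 of the CYP2 clan passed.

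Among genes with a known role, Cyp6g1, whose overexpression gives resistance to DDT and other insecticides, had a signal of 3739 ± 394 (SD, n = 7) in control and 3346 ± 423 (SD, n = 7) in fmn. Cyp4g15, described in the central nervous system of the fly, had 1017 ± 62.1 in control and 965 ± 89.2 in fmn (SD, n = 7 each). Neither gene was called between genotypes, with log2 differences of -0.18 (SE 0.09, limma adjusted p = 0.194) and -0.09 (SE 0.06, limma adjusted p = 0.350). Cyp6a2, another gene of insecticide resistance, stayed between 7.83 and 50.3 over the 14 arrays. Cyp303a1, needed for mechanosensory bristles, stayed between 0.656 and 20.1, and Cyp301a1, a gene of cuticle formation, between 45.3 and 82.1. Cyp6t3, an ecdysone synthesis gene of the larval prothoracic gland, ranged from 60.1 to 108 and did not pass the filter. These 4 genes were therefore dim on the head arrays of both genotypes. The P450 enzymes of ecdysone synthesis that carry names of their own, spo, spok, dib, sad and shd, were under 100 on all 14 arrays as well.

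The 10 P450 genes with the highest mean signal were Cyp313a1, Cyp6d5, Cyp6w1, Cyp4d21, Cyp28d1, Cyp9f2, Cyp4e2, Cyp6g1, Cyp28a5 and Cyp6a17, though signals of different probe sets do not rank transcripts. None of them was called between genotypes. Cyp313a1, of the CYP4 clan, had signals of 11438, 12232 and 12832 in control and 9300, 10317 and 11502 in fmn (lowest, median and highest), lower in fmn by less than 25% (log2 difference -0.25, SE 0.05, limma adjusted p = 0.00428). The ranges touched only at their ends. Cyp6d5, of the CYP3 clan, had 9619 ± 705 in control and 8685 ± 822 in fmn (SD, n = 7 each), with a log2 difference of -0.16 (SE 0.07, limma adjusted p = 0.0969). Among the others of the 10, log2 differences ran from -0.27 (Cyp4d21) to 0.17 (Cyp28d1).

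Cyp4g1 followed the arrays that stood apart. It codes for the oenocyte enzyme that makes cuticular hydrocarbons by removing the carbonyl carbon of long-chain aldehydes. Its signal was 4310 on the control array of ZT 0, 3791 on the fmn array of ZT 4 and 2570 on the fmn array of ZT 8, and between 29.3 and 127 on the other 11 arrays. These are the 3 arrays with transcripts of gut, testis or ovary, and Cyp4g1 was the only P450 gene whose signal on each of them was at least 100 and above every other array of the same genotype (104 of all probe sets, 0.554%, were). Other genes of oenocytes were less uniform, and the 4 oenocyte markers, of which Desat1 was high on every array, summed to 8248 to 12175 without marking these arrays. FASN2 (CG3524), a fatty acid synthase of oenocytes, had 89.7, 82.0 and 61.7 on the 3 arrays and at most 30.5 elsewhere. desatF reached 243 and eloF 149 on the fmn array of ZT 8 and stayed at or under 31.0 and 33.2 on all others. The genotypes overlapped widely for Cyp4g1, which did not pass the filter (log2 difference 0.93, SE 1.29, limma adjusted p = 0.796 over all probe sets).

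**Figure D1:**
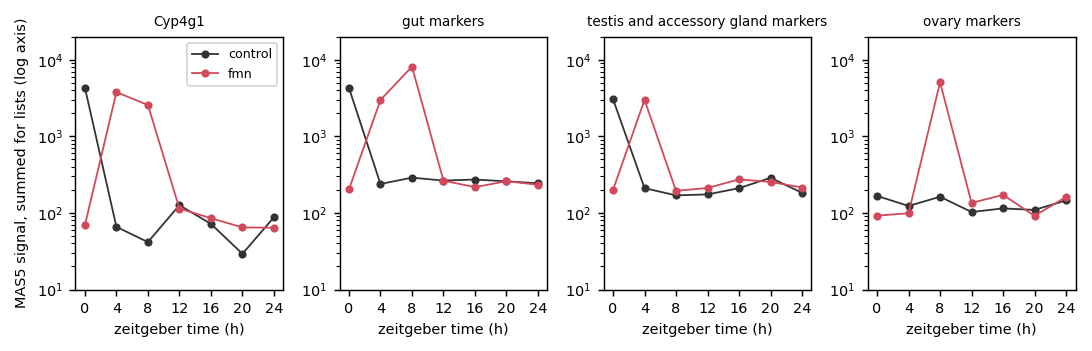
MAS5 signal of Cyp4g1 and summed signals of marker lists (log axis) against zeitgeber time in h, with 1 point per array for control and fmn. Cyp4g1 stands at 4310 in control at ZT 0 and at 3791 and 2570 in fmn at ZT 4 and ZT 8, the arrays where the gut markers sum to 4299, 2997 and 8156, and under 130 on all others.

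To ask which P450 transcripts depend on genotype, the 7 arrays of each genotype were compared as a whole. Of the 49 tested P450 genes, 6 (12.2%) were called, at an adjusted p under 0.05 and a signal at least 25% higher in a genotype than in the other, where 7.28% of all 8641 tested probe sets were. Cyp4p1, Cyp309a1, Cyp4ac2 and Cyp6t1 rose in fmn (4 of 49, against 3.70% of all probe sets), and Cyp4p3 and Cyp6a8 fell (2 of 49, against 3.58%). The median log2 difference of fmn minus control was 0.07 over the 49 genes and -0.02 over all tested probe sets, and the median size of a difference was 1.10-fold against 1.07-fold. By clan, 2 genes of the CYP3 clan rose and 1 fell among 24, 2 of the CYP4 clan rose and 1 fell among 18, and none of the 5 mitochondrial or 2 CYP2 genes was called. With 6 calls, the shares of the P450 genes rest on few genes.

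**Figure D2:**
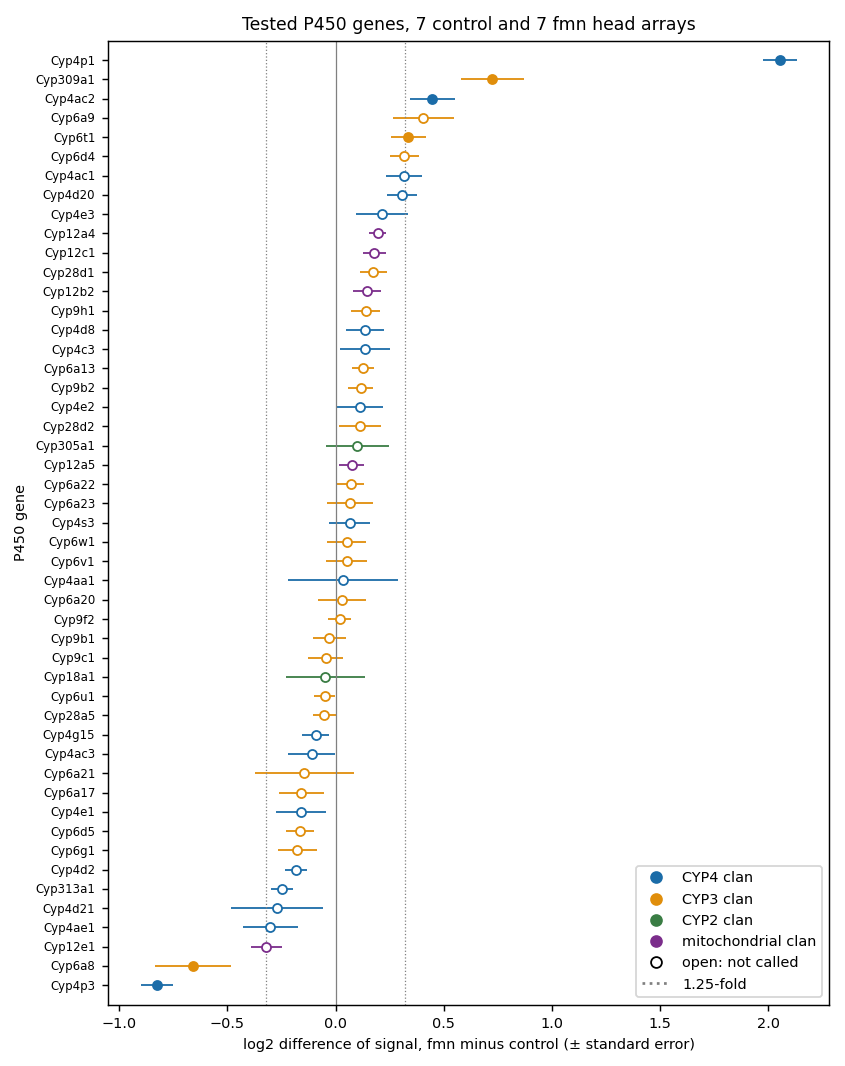
Log2 difference of MAS5 signal, fmn minus control, with its standard error, for the 49 tested P450 genes (7 arrays per genotype), coloured by clan, with open points for genes not called and dotted lines at the least difference for a call (25%). Cyp4p1 lies at 2.05, Cyp4p3 at -0.82, and the other genes between -0.66 and 0.73.

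The Cyp4p genes gave the largest differences, and they ran in opposite directions. Cyp4p1 signals in control were 871 at the lowest, 1047 at the median and 1128 at the highest, and in fmn 3689, 4305 and 4756. No fmn array came near a control array. The means were 1013 ± 93.1 and 4249 ± 447 (SD, n = 7 each), a log2 difference of 2.05 (SE 0.08, 4.15-fold, limma adjusted p = 6.63e-11), higher in fmn at 7 of 7 times. Cyp4p3 signals were 247, 285 and 314.8 in control and 142, 165 and 189 in fmn (lowest, median and highest). Here too the genotypes did not overlap, but in the other direction. The means of Cyp4p3 were 290 ± 24.0 and 165 ± 17.4 (SD, n = 7 each), a log2 difference of -0.82 (SE 0.07, 1.77-fold lower in fmn, limma adjusted p = 2.64e-06), lower at 7 of 7 times.

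Cyp4p2, Cyp4p1 and Cyp4p3 follow each other in this order on arm 2R, with no other gene between them in the Release 6 gene order. The control signals of Cyp4p2 were dim, 89.2 to 159 (mean 117 ± 24.2, SD, n = 7), and 4 of 7 reached 100. In fmn they were 1.76 to 12.5 (mean 5.64 ± 4.55, SD, n = 7), so that all fmn arrays lay below all control arrays. Cyp4p2 did not pass the filter, since a probe set dim on all arrays of a genotype is left out by it. In a fit over all 18769 probe sets its log2 difference was -4.79 (SE 0.45, limma adjusted p = 5.01e-05), and against a floor of 100 it was at least 1.15-fold lower in fmn. The middle gene of the row was thus higher in fmn and both its neighbours lower. The 3 genes lie 1003 to 1005 genes from DAT on the same arm.

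Cyp6d2, of the CYP3 clan, was left out by the filter in the same way. Its signals were 107 to 226 in control (mean 187 ± 41.6, SD, n = 7) and 29.2 to 69.3 in fmn (mean 50.0 ± 15.5, SD, n = 7), without overlap. In the fit over all probe sets the log2 difference was -1.94 (SE 0.23, limma adjusted p = 0.000289), at least 1.82-fold lower in fmn against the floor of 100. Cyp6d2 lies 864 genes from DAT on arm 2R. In that wider fit 7 of the 81 P450 genes were called, against 3.03% of all 18769 probe sets, with Cyp4p2 and Cyp6d2 added and Cyp6a8 lost (adjusted p = 0.0728).

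Cyp309a1 and Cyp4ac2 were higher in fmn by smaller amounts. Cyp309a1 signals were 105, 132 and 158 in control and 158, 211 and 305.4 in fmn (lowest, median and highest). The genotypes touched only at their ends. The log2 difference was 0.73 (SE 0.15, 1.65-fold, limma adjusted p = 0.00330), higher at 7 of 7 times. Cyp4ac2 signals were 397, 455 and 554 in control and 521, 639 and 778 in fmn. The upper control and lower fmn arrays overlapped, although fmn was higher at 7 of 7 times. Its log2 difference was 0.45 (SE 0.10, 1.36-fold, limma adjusted p = 0.00739), and with arrays scaled on their median the adjusted p was 0.0588.

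Cyp6a8, a xenobiotic-inducible gene that is overexpressed in insecticide-resistant strains, was lower in fmn. Its signals were 343, 447 and 635 in control and 202, 289 and 422 in fmn (lowest, median and highest), lower in fmn at 7 of 7 times. The ranges overlapped between 343 and 422. The log2 difference was -0.66 (SE 0.17, 1.58-fold lower, limma adjusted p = 0.0166). Without the 3 arrays that stood apart it was -0.61, with an adjusted p of 0.0889 in limma, so that the call was lost.

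Cyp6t1 rose least of the called genes. Its signals were 357, 431 and 514 in control and 452, 559 and 610 in fmn (lowest, median and highest), higher in fmn at 6 of 7 times. The lowest fmn value came from the array of ZT 8 and lay among the control values. The log2 difference was 0.34 (SE 0.08, 1.26-fold, limma adjusted p = 0.00981). It fell under the 25% needed for a call without the control array of ZT 20 (0.29) or the fmn arrays of ZT 0 (0.32), ZT 12 (0.31) or ZT 24 (0.32), and with arrays scaled on their median the limma adjusted p was 0.142.

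**Figure D3:**
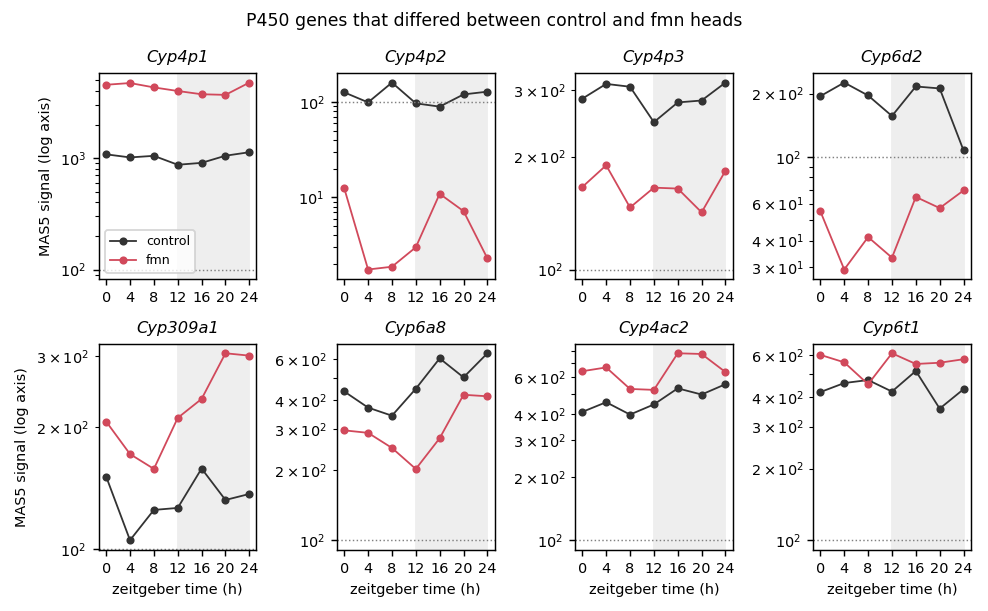
MAS5 signal against zeitgeber time in h for the P450 genes called between genotypes and for Cyp4p2 and Cyp6d2, which were called only in the fit over all probe sets, with 1 point per array, control and fmn joined by lines and the dark phase shaded. The fmn arrays of Cyp4p1 (3689 to 4756) lie above all control arrays (871 to 1128), and those of Cyp4p3, Cyp4p2 and Cyp6d2 below.

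Smaller differences passed the adjusted p without reaching 25% in 8 further genes, which makes 14 of 49 at any fold, where 18.6% of all tested probe sets passed. Cyp6d4 (0.32), Cyp4ac1 (0.32), Cyp4d20 (0.31), Cyp12a4 (0.20) and Cyp12c1 (0.18) were higher in fmn on the log2 scale. Cyp12a4 is a mitochondrial-clan gene whose overexpression gives resistance to the insecticide lufenuron. Its signals were 1170, 1263 and 1310 in control and 1368, 1427 and 1570 in fmn (lowest, median and highest). They did not overlap, although the difference was small (SE 0.04, limma adjusted p = 0.00330). Cyp12e1 (-0.32), Cyp313a1 (-0.25) and Cyp4d2 (-0.18) were lower. For 5 of the 49 genes (10.2%) the genotypes did not overlap (Cyp4p1, Cyp4p3, Cyp6d4, Cyp4d20 and Cyp12a4), against 5.01% of all tested probe sets. Without the 3 arrays that stood apart, Cyp6d4, Cyp4ac1 and Cyp4d20 were called higher as well, which made 7 higher and 1 lower, where 5.86% of all probe sets were called. The count of higher genes was also 7 without the control array of ZT 0, the control array of ZT 24 or the fmn array of ZT 8, and that of lower genes was 4 without the fmn array of ZT 8. In these fits, in that order, 6.9%, 7.46% and 7.15% of all tested probe sets were called in either direction.

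Of the 2 genes with a pair of probe sets, Cyp12e1 was lower in fmn by both, while the brighter probe set of Cyp18a1 showed no clear direction (0.07 without the 3 arrays that stood apart). The brighter probe set of Cyp12e1 had a log2 difference of -0.32 (SE 0.07, limma adjusted p = 0.00663) and missed 25% narrowly. The other fell by 0.37 on the log2 scale (SE 0.06, limma adjusted p = 0.000719) and was called, without overlap between 431 to 554 in control and 332 to 413 in fmn. The probe sets of Cyp18a1, which codes for the enzyme that inactivates ecdysteroids by 26-hydroxylation, gave -0.05 (SE 0.18) and -0.28 (SE 0.17), and neither was called (limma adjusted p = 0.895 and 0.265).

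P450 genes of flies often lie side by side, as copies of each other. With at most 5 other genes between neighbours, 44 of the 81 genes formed 14 groups. In the largest, 8 Cyp6a genes and Cyp317a1 on arm 2R, 7 were tested and Cyp6a8 was the only one called. In the same group Cyp6a9 had a log2 difference of 0.41 (SE 0.14, limma adjusted p = 0.0531) and was not called. It was called with the time point as a block in the fit (limma adjusted p = 0.0140) and under several other settings, among them no scaling beyond MAS5. In the blocked fit 7 of the 49 genes were called, against 8.04% of all tested probe sets. The group of Cyp28d2, Cyp28d1, Cyp4ac1, Cyp4ac2 and Cyp4ac3 on arm 2L had log2 differences of 0.11, 0.17, 0.32, 0.45 and -0.11 in that order, and Cyp4ac2 was called. Of the 10 P450 genes within 250 genes of DAT, 8 were tested and Cyp6a8 was called. By arm, 3 of 21 tested genes on 2R were called (7.17% of the tested probe sets there), 2 of 9 on 2L (6%), 1 of 7 on X (8.08%) and none of 4 on 3L (4.93%) or 8 on 3R (8.29%). Probe sets of near-identical copies may share transcript, and this was not tested.

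To ask which P450 transcripts follow the day, a 24 h cosine was fitted to the log2 signals. With a common rhythm for both genotypes, 22 of 49 P450 genes (44.9%) were rhythmic at an adjusted p under 0.05 in limma, where 14.4% of all tested probe sets were. The median amplitude, the distance from the daily mean to the peak in log2, was 0.16 over the 49 genes and 0.08 over all tested probe sets. The 22 genes comprised 11 of 24 tested genes of the CYP3 clan, 9 of 18 of the CYP4 clan, both tested genes of the CYP2 clan and none of 5 of the mitochondrial clan. Without the 3 arrays that stood apart, 12 of the 22 remained and none was added (24.5%, against 7.75% of all probe sets). Cyp309a1, Cyp6a22, Cyp6a8, Cyp6d5, Cyp6v1, Cyp6w1, Cyp4ac1, Cyp4ac3, Cyp4e3 and Cyp4p1 no longer passed, with adjusted p values in limma from 0.0510 (Cyp6a8) to 0.400 (Cyp309a1, whose amplitude went from 0.31 to 0.20). With arrays scaled on their median 18 genes were rhythmic, against 8.38% of all probe sets, 16 of them among the 22, and Cyp6a22, Cyp6a23, Cyp6d5, Cyp6g1, Cyp4ac1 and Cyp4p1 were lost.

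Cyp4d21 had the strongest rhythm. Known as sex-specific enzyme 1 (sxe1), it is expressed more in male than in female heads and acts in male courtship. Its signal ran from 3586 at ZT 4 to 7652 at ZT 20 in control and from 3007 at ZT 4 to 6878 at ZT 16 in fmn. In both genotypes the arrays of ZT 16 and ZT 20 were the highest. The common amplitude was 0.61 (SE 0.04) with a peak at ZT 17.2 (SE 0.233 h, limma adjusted p = 1.54e-06), and the peaks fitted to each genotype were ZT 17.4 and ZT 16.9. Its signal was lower in fmn at 7 of 7 times, with a log2 difference of -0.27. The adjusted p in limma was 0.419 (SE 0.21) with the daily change in the spread and 0.00326 (SE 0.05) with the time point as a block, and as the difference was under 25% it was called in neither fit. Cyp18a1, the ecdysteroid 26-hydroxylase, also peaked in the dark phase, at ZT 15.3 (SE 0.586 h), with an amplitude of 0.45 (SE 0.07, limma adjusted p = 0.00178). Its lowest and highest signals were 593 at ZT 24 and 1196 at ZT 20 in control and 633 at ZT 4 and 1346 at ZT 12 in fmn. The dimmer probe set of Cyp18a1 peaked at ZT 15.8 with an amplitude of 0.41 (limma adjusted p = 0.00275).

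Several genes of the Cyp6a group on arm 2R peaked around lights-on. Cyp6a21 ran from 201 at ZT 12 to 545 at ZT 24 in control and from 172 at ZT 12 to 402 at ZT 24 in fmn, with an amplitude of 0.57 (SE 0.06) and a peak at ZT 0.214 (SE 0.433 h, limma adjusted p = 4.75e-05). Cyp6a17, which acts in temperature preference, was lowest at ZT 16 in control (2311) and at ZT 12 in fmn (1926), and highest at ZT 24 in both (3541 and 2931). Its amplitude of 0.25 (SE 0.04) was smaller, with a peak at ZT 0.614 (limma adjusted p = 0.00108). Cyp6a23 (peak ZT 3.13), Cyp6a22 (ZT 0.336) and Cyp6a20 (ZT 22.3) of the same group were rhythmic too, though Cyp6a23 (limma adjusted p = 0.137) and Cyp6a22 were not with median scaling. Cyp6a20, a gene linked to aggression, ran from 904 at ZT 12 to 1185 at ZT 24 in control and from 754 at ZT 12 to 1357 at ZT 0 in fmn. Cyp6a8 peaked earlier in the dark, at ZT 20.7 (amplitude 0.37, SE 0.09, limma adjusted p = 0.0320, and 0.0510 without the 3 arrays that stood apart).

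Cyp4aa1 and Cyp305a1 were highest in the morning as well. Cyp4aa1 ran from 104 at ZT 16 to 243 at ZT 24 in control and from 68.8 at ZT 12 to 219 at ZT 0 in fmn, with an amplitude of 0.59 (SE 0.09) and a peak at ZT 0.668 (limma adjusted p = 0.00143). Cyp305a1, of the CYP2 clan, was highest at ZT 4 (2449 in control, 2357 in fmn) and lowest at ZT 16 (1327 and 1363). The genotypes shared both times of its extremes. Its peak was fitted at ZT 3.96 (SE 0.364 h) with an amplitude of 0.39 (SE 0.04, limma adjusted p = 5.09e-05).

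**Figure D4:**
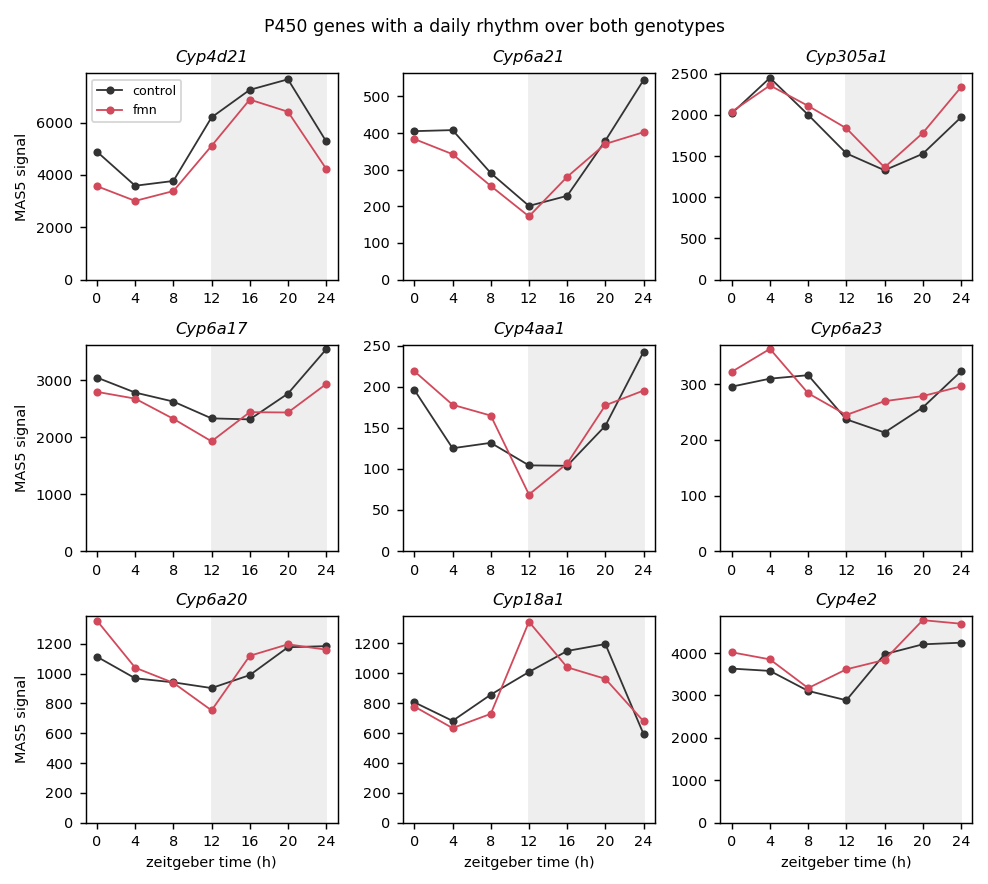
MAS5 signal against zeitgeber time in h for the P450 genes with the smallest p of the common rhythm, in order of p from Cyp4d21 to Cyp4e2. Each array is 1 point, control and fmn are joined by lines and the dark phase is shaded. Cyp4d21 rises to 7652 in control and 6878 in fmn in the dark phase, and Cyp6a21, Cyp6a17 and Cyp4aa1 are lowest at ZT 12 or ZT 16 in both genotypes.

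The peaks of the 22 genes left part of the day empty. From ZT 15.3 to ZT 22.3 lay 13 peaks and from ZT 23.2 to ZT 3.96 the other 9, and none fell between ZT 5 and ZT 14, where 34.7% of all rhythmic probe sets peaked. These windows were chosen after the peaks were seen. In the dark phase, from ZT 12 to ZT 24, lay 14 of the 22 peaks (63.6%, against 52.9% of all rhythmic probe sets). The group of the dark phase included Cyp4d21, Cyp18a1, Cyp4d8 (ZT 17.5), Cyp4e2 (ZT 21.2) and Cyp4c3 (ZT 21.1). Of the 6 genes called between genotypes, Cyp4p1 (peak ZT 2.55, amplitude 0.17), Cyp6a8 and Cyp309a1 (ZT 19.3, amplitude 0.31) were also rhythmic, although none of these 3 was without the arrays that stood apart.

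**Figure D5:**
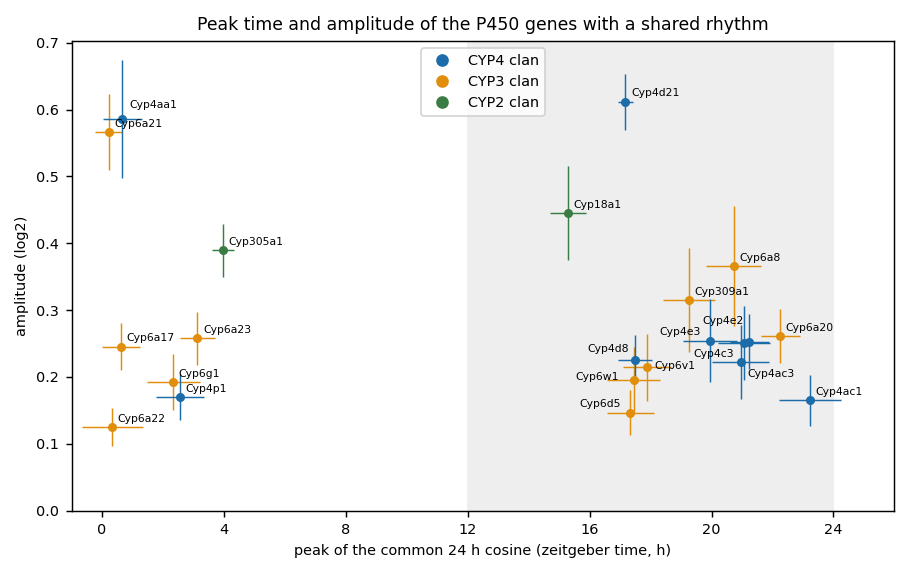
Amplitude in log2 against the peak of the common 24 h cosine in zeitgeber time (h), each with its standard error, for the 22 P450 genes with a common rhythm, coloured by clan, with the dark phase shaded. No peak lies between ZT 5 and ZT 14, and Cyp4d21 has the largest amplitude (0.61, at ZT 17.2).

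Tested within each genotype, 5 P450 genes were rhythmic in control (10.2%, against 5.14% of all tested probe sets) and 6 in fmn (12.2%, against 4.28%). Cyp4d21, Cyp6a21 and Cyp305a1 were rhythmic in both, Cyp6a17 and Cyp6a23 in control, and Cyp4aa1, Cyp6a20 and Cyp4d8 in fmn. Both counts were 3 without the 3 arrays that stood apart, and the control count was 3 without the control array of ZT 12 or ZT 16. Shares of all probe sets rhythmic in a single genotype are not given for these fits, so the fall is no result about P450 genes. The share of all probe sets with a common rhythm fell too, from 14.4% to 7.75%, 11.9% and 12.1% in that order. A call in a single genotype does not show a difference, which was tested directly. No P450 gene and no other probe set (0%) had an adjusted p under 0.05 for a difference in rhythm in limma. No P450 gene had an unadjusted limma p under 0.05 (smallest 0.0788), where 357 of all 8641 tested probe sets had. As this share is small, the lack of such a P450 gene says little.

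P450 enzymes need electron donors and heme, and their genes answer to nuclear receptors and to the oxidative stress factor cnc, the fly homologue of Nrf2. Of 35 such partner and regulator genes listed, 30 had a probe set of their own and 23 were tested. Only cnc was called (4.35% of the 23, against 7.28% of all tested probe sets). Its signal was 1931, 1986 and 3343 in control and 2344, 3088 and 3832 in fmn (lowest, median and highest), and all control arrays but that of ZT 24 lay below all fmn arrays. The log2 difference was 0.52 (SE 0.13, 1.43-fold, limma adjusted p = 0.00996), higher at 6 of 7 times. Without the 3 arrays that stood apart its log2 difference was 0.41 (SE 0.14, limma adjusted p = 0.0895) and none of the list was called. The count was 2 without the fmn array of ZT 0 and 3 without that of ZT 12, where 7.48% and 8.69% of all tested probe sets were called. These values of cnc come from its brighter probe set. The other probe set of cnc was dim, with 3.70 to 35.8 in control and 13.9 to 31.3 in fmn, and was not tested. The nuclear receptor gene ftz-f1 had a larger difference that was not called (0.95, SE 0.39, limma adjusted p = 0.101). Its signals were 482 to 632 in control and 1273 to 1571 on 6 fmn arrays, but 173 on the fmn array of ZT 12, the array with the low neuron marker sum. Without that array the log2 difference of ftz-f1 was 1.39. That fit leaves out the lowest fmn value of the gene itself, so it does not test the difference. None of the 4 electron donor genes tested was called, and Cpr and dare, the other donors listed, had no probe set of their own. The donor Fdx1 passed the adjusted p with less than 25% (log2 difference -0.14, SE 0.04, limma adjusted p = 0.0231). So did the regulators Hr96 (-0.21, SE 0.05, limma adjusted p = 0.00591) and tgo (-0.20, SE 0.05, limma adjusted p = 0.0210), each lower in fmn at 7 of 7 times like Fdx1. Without the 3 arrays that stood apart Hr96 still passed (limma adjusted p = 0.0399), and Fdx1 (0.113) and tgo (0.0755) did not. Cyt-b5, which passes electrons to P450 enzymes, was at 8670 ± 453 in control and 8165 ± 636 in fmn (SD, n = 7 each). None of the 6 heme synthesis genes was called, although 3 passed the adjusted p with less than 25%. Alas, which codes for the rate-limiting enzyme, had a log2 difference of -0.20 (SE 0.05, limma adjusted p = 0.00788). Updo had -0.27 (SE 0.05, limma adjusted p = 0.00344) and, in the other direction, Coprox had 0.28 (SE 0.07, limma adjusted p = 0.0114). Without the 3 arrays that stood apart Updo still passed (limma adjusted p = 0.0399), and Alas (0.0621) and Coprox (0.0653) did not. Keap1, the inhibitor of cnc, had a log2 difference of -0.04 (SE 0.08, limma adjusted p = 0.753). Of the 23 genes 5 (21.7%, against 14.4% of all tested probe sets) had a common rhythm, among them the clock output factors vri (peak ZT 12.8, amplitude 1.59) and Pdp1 (ZT 13.4, 0.55), whose peaks lay in the hours where no P450 gene peaked.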

How the data were processed

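The authors hybridized biotin-labeled cRNA from head RNA to Affymetrix arrays, and what they deposited is a linear MAS5 signal intensity per probe set (its version and scaling target are not given in the sources used here). From these, log2 values were centred on the 75th percentile of each array, and probe sets dim (under 100) on 7 or more of the 14 arrays were not tested. Another 2 probe sets that name a P450 gene together with a further gene were not members.

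The genotype fit used lmFit and eBayes of limma 3.58.1 under R 4.3.3, with the 7 times of a genotype as its samples, as in the study's methods, so p-values measure the spread between single pools over the day. Calls needed a Benjamini-Hochberg adjusted p under 0.05 over all 8641 tested probe sets and a difference of at least 25%. Rhythms were limma F tests of a 24 h cosine term and its sine. The fits were tested on simulated data.

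Named genes were those called, the 12 with the smallest p of the common rhythm, the 10 with the highest signal, and those with several probe sets or a known role. Others were named after their values were seen. Genes, lists and tests were chosen with earlier results of these data known. Same-time arrays of control and fmn deviated together (correlations across probe sets of 0.132 to 0.503 at the 7 times). The control arrays of ZT 0 and ZT 12 correlated best with the fmn arrays of ZT 4 and ZT 8, and the others with their own time. Time points were taken to pair the arrays, and time was a block in an alternative fit. Other alternatives changed scaling, filter, pseudocount, test, thresholds and arrays.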

Additional observations from a re-analysis of the deposited data

Results flagged for a closer look

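Within the 7 arrays of a genotype, the highest or lowest signal lay far from the rest in 5 of 66 groups tested, where chance flags about 1 in 20 groups. Cyp4g1 stood at 4310 on the control array of ZT 0, with the next value at 127, on an array that also held transcripts of gut and testis. Cyp6t1 was lowest in fmn at ZT 8 (452, next 550), also on an array that stood apart. Cyp6d5 was highest in control at ZT 16 (11034, next 9798). Cyp303a1 was highest in control at ZT 8 (20.1, next 1.68) and Cyp301a1 lowest in control at ZT 24 (51.9, next 60.9), both at signals under 100.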

How the results depend on the processing

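The number of P450 genes higher in fmn, 4 as reported, was 7 without scaling beyond MAS5, 2 with scaling on the median, 7 without the 3 arrays that stood apart and 9 without a fold threshold. Of all tested probe sets, 7.28% were called in either direction as reported. In those settings, in the same order, 7.38%, 5.99%, 5.86% and 18.6% were. The number lower, 2, became 1 without those arrays and 5 without a fold threshold. The 1 partner gene became 0 and 7 under the same settings. P450 genes rhythmic in control, 5 as reported, were 2 without a filter and 3 without the 3 arrays. Those rhythmic in fmn, 6, were 1 without a filter, 3 without the 3 arrays, 10 with median scaling and 10 with limma's trend. Shares of all probe sets rhythmic in a single genotype are not given for these settings, so these changes are not particular to P450 genes. Genes with a common rhythm, 22 as reported, numbered 11 without a filter (10 of them among the 22) and 12 without the 3 arrays (all among the 22). The share over all probe sets fell as well, from 14.4% to 3.1% without a filter and to 7.75% without the 3 arrays. Leaving out each array in turn gave 3 to 7 higher, 2 to 4 lower, 1 to 3 partner genes, 3 to 7 rhythmic in control, 4 to 9 in fmn, 15 to 21 with a common rhythm and 0 to 0 whose rhythm differed. In these fits 6.58% to 8.69% of all tested probe sets were called between genotypes, and 11.5% to 14.6% had a common rhythm. The cause of these changes was not tested. With the time point as a replicate block, which pairs the arrays, 5 genes were higher and 2 lower, with all 6 calls kept and Cyp6a9 added, and no other call of a P450 gene changed. Median scaling moved the median log2 difference of all tested probe sets from -0.02 to -0.05 and the share of higher among all calls from 50.9% to 39.6%. Of the named genes' values, no called value changed sign under any alternative. The number of arrays and signals near the floor of 100 limit what can be told.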

Other observations

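ZT 0 and ZT 24 are the same hour of the light cycle, a day apart. Between them, 7 of the 49 tested P450 genes differed by at least 25% in control (10.6% of all tested probe sets did) and 4 in fmn (9.43%). The median size of the log2 difference was 0.16 for P450 genes and 0.11 for all probe sets in control, and 0.13 and 0.11 in fmn. Cyp6a8 was higher at ZT 24 than at ZT 0 by 0.56 (control) and 0.52 (fmn) on the log2 scale. A probe set shared by Cyp12d1-d and Cyp12d1-p, a pair of near-identical copies, had signals of 1.35 to 21.9 over all 14 arrays.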
